A study of Mus musculus with 12 samples.

Results

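Gata6 and 9 other genes associated with resident macrophages of the peritoneal cavity (Timd4, Vsig4, Fcna, Prg4, F5, Apoc1, Icam2, Selp and Garnl3) were followed across 12 RNA-seq libraries of mouse peritoneal macrophages. The 10 genes were chosen by symbol from the 53465 genes of the deposited table, and all 10 were among the 20419 genes that passed the filter on low values. All libraries came from C57BL/6 mice at postnatal week 10 and fall into 4 groups of 3. These are Lyz2Cre-BHLHE40-Fl with lipopolysaccharide (LPS), Lyz2Cre-BHLHE40-Fl control, Lyz2Cre with LPS and Lyz2Cre control. LPS, from the outer wall of Gram-negative bacteria, is sensed by macrophages through TLR4. All 4 groups carry the Lyz2Cre label, a Cre recombinase under control of the lysozyme 2 locus. That locus is used by myeloid cells in general, so Cre is not limited to macrophages. BHLHE40, named in the label of 2 groups, is a transcription factor of the basic helix-loop-helix family, and the labels do not describe the allele further. The sources used here give neither the dose and time of LPS nor whether replicates are separate animals or cultures, so p-values reflect the spread among these libraries alone.

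Large peritoneal macrophages are long-lived resident phagocytes of the abdominal cavity. Gata6, a zinc finger transcription factor that binds GATA motifs, is needed for much of the gene programme that sets them apart from macrophages of other tissues, and retinoic acid from the surrounding tissue induces it. The mesothelium, the cell layer that lines the cavity, also expresses Gata6, so RNA of this gene can come from either cell type.

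Deposited values (reads scaled by 1 factor for each library) are used throughout, and libraries held 20489417 to 29354869 reads. A read was worth between 0.725 and 1.56 in these values. Bhlhe40, the gene named in the label, averaged 7893 ± 239 in Lyz2Cre-BHLHE40-Fl controls against 4976 ± 295 in Lyz2Cre controls (SD, n = 3 each). Its mean was thus higher, not reduced, in Lyz2Cre-BHLHE40-Fl controls. With LPS Bhlhe40 averaged 2232 ± 244 in Lyz2Cre-BHLHE40-Fl against 2467 ± 226 in Lyz2Cre. A value for the whole gene does not check the loss of single exons, and directions between genotypes rest on the label. General macrophage genes (10 of 10 tested, none at 0 in a whole group) summed to 130322 to 133952 in Lyz2Cre-BHLHE40-Fl with LPS and 96710 to 101010 in Lyz2Cre-BHLHE40-Fl controls. Their sum was 190827 to 200917 in Lyz2Cre with LPS and 118674 to 129003 in Lyz2Cre controls. The sum was thus lower under the BHLHE40-Fl label in both treatments, without overlap, though not for each gene. In controls 6 of the 10 were called lower, 1 (Spi1) higher and 3 not called, beside 16.6% of all tested genes lower and 15% higher. With LPS 8 were called lower, 0 higher and 2 not called, beside 19.8% of all genes lower and 17.7% higher.

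Gata6 (ENSMUSG00000005836, chromosome 18 from 11052064 to 11085635, plus strand, GENCODE annotation of mm10, as for the positions below) was the member that differed most upward between genotype labels. It stood at 322.1, 300 and 377.5 in the 3 Lyz2Cre-BHLHE40-Fl control libraries, against 15.4, 25.1 and 33.5 in the 3 Lyz2Cre control libraries. In the LPS libraries Gata6 stood at 155.7, 199.3 and 180.3 in Lyz2Cre-BHLHE40-Fl, against 19.5, 20.7 and 20.2 in Lyz2Cre. All 6 libraries labelled Lyz2Cre-BHLHE40-Fl lay above all 6 labelled Lyz2Cre. The ratio of means was 13.5 in controls (log2 difference 3.76 ± 0.23 SE, limma adjusted p = 6.15e-10) and 8.86 with LPS (log2 difference 3.08, limma adjusted p = 1.07e-08). Gata6 fell with LPS in Lyz2Cre-BHLHE40-Fl, with a log2 change of -0.90 (limma adjusted p = 0.00361). In Lyz2Cre the log2 change was -0.22 with a 95% interval of -0.71 to 0.28 (limma adjusted p = 0.493). The difference between these 2 changes was -0.68 and was not called (limma adjusted p = 0.181), so the LPS change is not shown to differ between labels. Without Lyz2Cre control replicate 3 that difference was -0.93 and was called (limma adjusted p = 0.0391).

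Mesothelial marker genes differed between labels in the same direction as Gata6. The 14 listed genes summed to 1621 to 1971 in Lyz2Cre-BHLHE40-Fl with LPS and 2523 to 3310 in its controls. In Lyz2Cre the sum was 7.8 to 32.0 with LPS and 19.4 to 25.8 in controls, and 6 and 4 of the 14 genes were at 0 in all 3 libraries of those groups. Upk3b, a uroplakin of the mesothelial surface, averaged 628.7 ± 153 in Lyz2Cre-BHLHE40-Fl controls and was at 0 in all 6 Lyz2Cre libraries. All 14 were called higher in Lyz2Cre-BHLHE40-Fl controls than in Lyz2Cre controls, beside 15% of all tested genes. With LPS 13 were called higher, beside 17.7% of all genes. Gata6 amounted to 9.15% to 12.8% of the mesothelial sum in each of the 6 libraries labelled Lyz2Cre-BHLHE40-Fl. In the 6 Lyz2Cre libraries, where that sum was small, it amounted to 60.9% to 259%. With LPS in Lyz2Cre-BHLHE40-Fl, 4 of the 14 fell, 0 rose and 10 were not called, beside 25.6% of all tested genes called lower. The count of 4 was 1 to 10 among the alternatives. In the 6 Lyz2Cre libraries Gata6 stood at 15.4 to 33.5 while most mesothelial markers were at or near 0. Wt1, 1 of the 14, averaged 14.1 with LPS and 11.1 in controls of Lyz2Cre. Fibroblast genes were also higher under the BHLHE40-Fl label. In both genotype comparisons 6 of 6 were called higher, beside 15% of all genes in controls and 17.7% with LPS. Their sum was 10795 to 14331 in Lyz2Cre-BHLHE40-Fl with LPS, against 3121 to 4608 in Lyz2Cre with LPS, and 9521 to 12070 in Lyz2Cre-BHLHE40-Fl controls, against 1935 to 2103 in Lyz2Cre controls. The part of mesothelial or fibroblast RNA in the Gata6 difference was not tested.

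**Figure D1:**
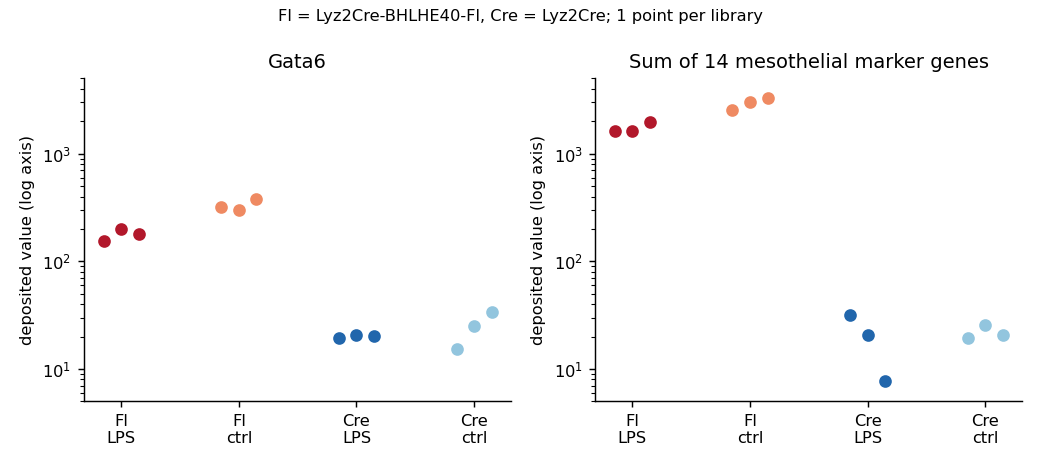
Deposited value of Gata6 (left) and summed value of 14 mesothelial marker genes (right), on log axes, with 1 point per library and groups of 3 libraries. The 6 libraries labelled Lyz2Cre-BHLHE40-Fl (Fl) lie above the 6 labelled Lyz2Cre (Cre) in both panels.

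Relatives of Gata6 and genes with a like pattern were looked at next. Gata5 averaged 74.0 ± 12.8 in Lyz2Cre-BHLHE40-Fl controls against 0.5 ± 0.87 in Lyz2Cre controls, and Gata4 13.6 ± 0.96 against 2.17 ± 1.79. Both were called higher (limma adjusted p = 2.08e-07 for Gata5 and 0.00474 for Gata4). Among 11547 genes with a mean of at least 10, Lhfp lay closest to Gata6, with a root mean square difference of 0.19 (centred log2 values, 12 libraries). Lhfp averaged 178.3 in Lyz2Cre-BHLHE40-Fl with LPS, 360.4 in its controls, 23.1 in Lyz2Cre with LPS and 25.6 in its controls. Sema3f, Grb10, Tshz2 and Ndnf came next, with differences of 0.29 to 0.35.

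Of 16 listed genes of the retinoic acid pathway, from synthesis to receptors, 15 passed the filter on low values. Their part in the Gata6 difference was not tested. In controls 8 were called higher and 3 lower under the BHLHE40-Fl label, beside 15% of all tested genes higher and 16.6% lower. With LPS 7 were called higher and 2 lower, beside 17.7% of all genes higher and 19.8% lower. Aldh1a1, which makes retinoic acid from retinal, averaged 134.5 ± 10.3 in Lyz2Cre-BHLHE40-Fl controls and was at 0 in all 3 Lyz2Cre controls, at least 166.8-fold higher by a floor of 3 reads over the group. LPS against control gave 3 higher, 5 lower and 7 not called in Lyz2Cre-BHLHE40-Fl, beside 24.9% of all genes higher and 25.6% lower. In Lyz2Cre it gave 3 higher, 4 lower and 8 not called, beside 25% and 23.9%. Rarb, a retinoic acid receptor, was among the genes that fell with LPS in both labels. Rarb averaged 14.7 with LPS against 120.6 in controls of Lyz2Cre-BHLHE40-Fl, and 8.43 with LPS against 73.0 in controls of Lyz2Cre (limma adjusted p = 5.11e-05 and 1.42e-05).

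Counted over the 10 members, 3 were called higher and 4 lower in Lyz2Cre-BHLHE40-Fl controls than in Lyz2Cre controls, where 31.6% of all tested genes were called in either direction (15% higher and 16.6% lower). With LPS the genotype comparison also gave 3 higher and 4 lower, against 37.4% of all genes (17.7% higher and 19.8% lower). LPS gave 2 higher and 2 lower in Lyz2Cre-BHLHE40-Fl, where 50.5% of all genes were called (24.9% higher and 25.6% lower). In Lyz2Cre it gave 2 higher and 0 lower, where 48.9% of all genes were called (25% higher and 23.9% lower). The LPS change differed between labels for 1 member, higher in Lyz2Cre-BHLHE40-Fl, beside 18.8% of all genes (9.52% higher and 9.31% lower). The median log2 change over the members was -0.56 (genotype in controls), 0.09 (genotype with LPS), 0.11 (LPS in Lyz2Cre-BHLHE40-Fl) and -0.05 (LPS in Lyz2Cre), beside medians over all genes between -0.05 and 0.00. The genotype and LPS comparisons share groups, so these counts are not independent of each other. Under equal library totals 4 members were called lower with LPS in Lyz2Cre, Gata6 (-0.91), F5 (-0.98), Vsig4 (-1.06) and Icam2 (-0.60). Between labels Gata6 and Fcna were higher in both treatments, while Prg4, F5, Vsig4 and Icam2 were lower.

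**Figure D2:**
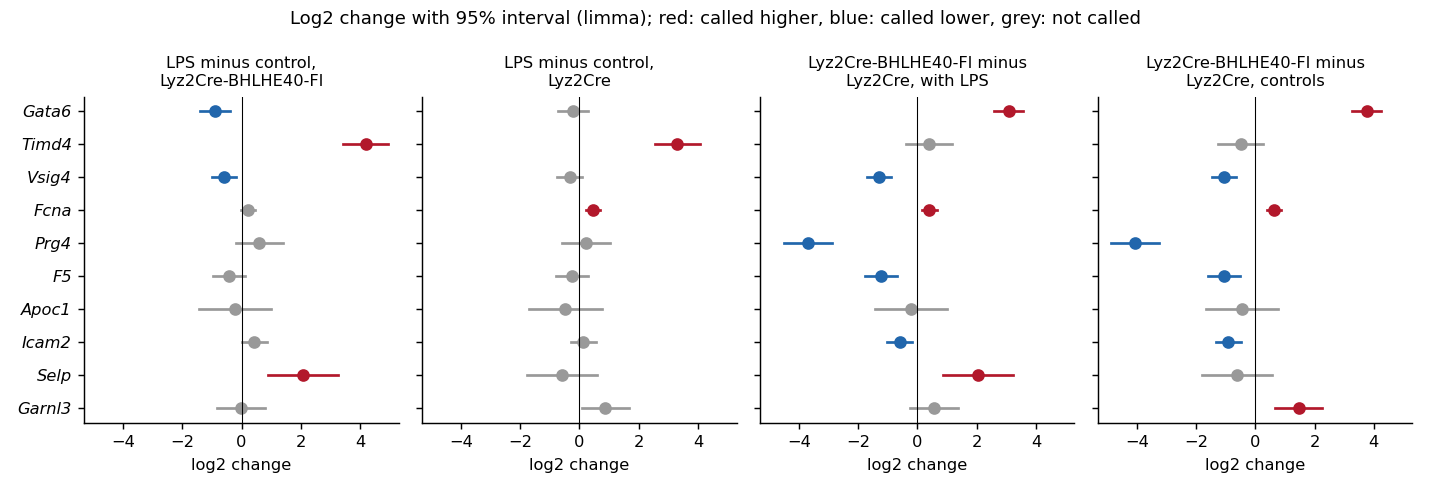
Log2 change (x axis) of each member with its 95% interval from limma, in 4 comparisons; red was called higher, blue lower and grey not called. Between genotype labels Gata6 and Fcna lie to the right of 0 while Prg4, F5, Vsig4 and Icam2 lie to the left, and Timd4 is far to the right in both LPS comparisons.

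Timd4 (ENSMUSG00000055546, chromosome 11 from 46810800 to 46844332, plus strand) encodes a phosphatidylserine receptor used to take up dying cells, and it marks long-lived resident macrophages. With LPS it stood at 73.7, 72.1 and 78.9 in Lyz2Cre-BHLHE40-Fl, against 3.6, 2.4 and 3.6 in its controls. In Lyz2Cre it stood at 63.9, 53.8 and 54.4 with LPS, against 7.7, 5.7 and 2.5 in controls. All 6 LPS libraries lay above all 6 controls. It rose 23.4-fold in Lyz2Cre-BHLHE40-Fl (log2 change 4.19 ± 0.36 SE, limma adjusted p = 1.99e-08) and 10.8-fold in Lyz2Cre (log2 change 3.31 ± 0.36 SE, limma adjusted p = 4.66e-07). The difference between the 2 changes was 0.88 with a 95% interval of -0.20 to 1.97 and was not called (limma adjusted p = 0.278). Between genotype labels Timd4 was not called in controls or with LPS (limma adjusted p = 0.344 and 0.462). Control levels rest on 13 reads in Lyz2Cre-BHLHE40-Fl and 20 in Lyz2Cre, summed over the group. Its relative Havcr2 (TIM-3) went the other way, with 13.97 ± 4.29 with LPS against 282.2 ± 15.7 in controls of Lyz2Cre-BHLHE40-Fl. In Lyz2Cre Havcr2 had 265.4 ± 21.8 with LPS against 1810 ± 85.4 in controls. Of the 3 listed relatives, 2 were called higher and 1 lower with LPS in Lyz2Cre, beside 25% and 23.9% of all genes. In Lyz2Cre-BHLHE40-Fl 0 were called higher, 1 lower and 2 not called, beside 24.9% of all genes higher and 25.6% lower. Papd7, Trim21, Csf1, Nod1 and Arid5a had the patterns most like that of Timd4 (root mean square differences of 0.25 to 0.33).

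The Timd4 promoter is shown because this member had the largest LPS change and the only GATA match among the members found in the promoter table. RefSeq (GRCm38.p6) gave 7 windows for 6 members, each of 300 bases with 250 before and 50 after the start, and the others were Vsig4, Fcna, F5, Selp and Garnl3. The letters AGATAA were searched on both strands, and likewise the letters AGATAG, the letters TGATAA and the letters TGATAG. 1 of the 7 windows held a match, beside 29.8% of 32851 promoters of the table. In the Timd4 window, chr11:46810549-46810848 on the plus strand, the match is in capitals near the end.
Timd4: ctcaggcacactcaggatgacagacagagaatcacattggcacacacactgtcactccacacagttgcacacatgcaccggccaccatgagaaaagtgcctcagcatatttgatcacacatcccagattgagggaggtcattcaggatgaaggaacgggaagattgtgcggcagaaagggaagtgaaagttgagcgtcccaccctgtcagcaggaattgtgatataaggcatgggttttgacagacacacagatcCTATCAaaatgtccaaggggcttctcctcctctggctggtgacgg

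Vsig4 and Fcna belong to complement and lectin recognition. Vsig4 (ENSMUSG00000044206, chromosome X from 96247203 to 96293438, minus strand) encodes the complement receptor CRIg. In controls it stood at 112.0, 63.9 and 76.8 in Lyz2Cre-BHLHE40-Fl, against 174.7, 184.0 and 157.4 in Lyz2Cre. LPS libraries had 59.7, 53.7 and 50.1 in Lyz2Cre-BHLHE40-Fl, against 151.5, 118.6 and 140.0 in Lyz2Cre. Every library under the BHLHE40-Fl label lay below every Lyz2Cre library. Vsig4 was 2.04-fold lower in controls (log2 difference -1.06, limma adjusted p = 0.000323) and 2.51-fold lower with LPS (log2 difference -1.31, limma adjusted p = 3.46e-05). The summed level of general macrophage genes was also lower under that label, though not each gene was called, and in bulk RNA fewer cells of a type and less RNA per cell cannot be told apart. Vsig4 fell with LPS in Lyz2Cre-BHLHE40-Fl (log2 change -0.58, limma adjusted p = 0.0183). This call was lost under quantile normalization (limma adjusted p = 0.135), with the 2 groups alone (limma adjusted p = 0.0854), and without LPS replicate 3 (limma adjusted p = 0.0596) or control replicate 1 (limma adjusted p = 0.119). In Lyz2Cre the LPS change of -0.33 was not called (95% interval -0.74 to 0.08). Mgst1, Maoa and Ptpre had the patterns most like it, with differences of 0.19 to 0.20.

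Fcna (ENSMUSG00000026938, chromosome 2 from 25624666 to 25628030, minus strand) encodes ficolin A, a lectin that starts the complement lectin pathway. It stood at 383.9, 463.4 and 360.2 in Lyz2Cre-BHLHE40-Fl controls, against 284.1, 248.9 and 239.5 in Lyz2Cre controls. LPS libraries had 454.1, 455.4 and 502.2 in Lyz2Cre-BHLHE40-Fl, against 321.0, 365.5 and 379.5 in Lyz2Cre. The genotype groups did not overlap in either treatment, and Fcna was 1.56-fold higher in controls and 1.32-fold higher with LPS (limma adjusted p = 0.00023 and 0.00838). LPS gave a log2 change of 0.46 in Lyz2Cre (limma adjusted p = 0.00222), which turned to -0.26 under equal library totals. In Lyz2Cre-BHLHE40-Fl the change of 0.23 was not called (limma adjusted p = 0.1) and turned to -0.39 under equal library totals, and without control replicate 2 it was called (0.34, limma adjusted p = 0.024). Its relative Fcnb was at 0 in all 6 libraries labelled Lyz2Cre-BHLHE40-Fl, against 6.3 ± 3.04 with LPS and 13.8 ± 6.4 in controls of Lyz2Cre.

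Prg4 and F5, which encode secreted products, were lower under the BHLHE40-Fl label. Prg4 (ENSMUSG00000006014, chromosome 1 from 150449412 to 150466165, minus strand) encodes lubricin, a lubricating glycoprotein. In controls it stood at 2.2, 0.8 and 2.2 in Lyz2Cre-BHLHE40-Fl, against 47.7, 34.0 and 49.4 in Lyz2Cre. Its LPS libraries had 2.3, 3.1 and 3.8 in Lyz2Cre-BHLHE40-Fl, against 47.2, 52.4 and 52.9 in Lyz2Cre. Prg4 was thus near the detection limit under the BHLHE40-Fl label, with 7 reads over each group of 3 libraries. It was 25.2-fold lower in controls (log2 difference -4.06 ± 0.38 SE, limma adjusted p = 1.51e-07) and 16.6-fold lower with LPS (log2 difference -3.69, limma adjusted p = 5.63e-07). Gata6 and Prg4 moved in opposite directions in both comparisons. LPS gave Prg4 log2 changes of 0.61 in Lyz2Cre-BHLHE40-Fl and 0.23 in Lyz2Cre, neither called. Spp1, Mmp9 and Bst1 had the patterns most like it, with differences of 0.34 to 0.36.

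F5 (ENSMUSG00000026579, chromosome 1 from 164151838 to 164220277, plus strand) encodes coagulation factor V, the cofactor of factor Xa. It stood at 59.6, 56.8 and 44.2 in Lyz2Cre-BHLHE40-Fl controls, against 105.5, 108.6 and 125.6 in Lyz2Cre controls. The LPS values were 33.9, 55.2 and 32.6 in Lyz2Cre-BHLHE40-Fl, against 116.7, 113.1 and 63.8 in Lyz2Cre. Replicate 3 of Lyz2Cre with LPS was low but still above the Lyz2Cre-BHLHE40-Fl libraries, so the labels did not overlap. F5 was 2.12-fold lower in controls and 2.41-fold lower with LPS (limma adjusted p = 0.00327 and 0.000866). Its LPS changes of -0.42 in Lyz2Cre-BHLHE40-Fl and -0.25 in Lyz2Cre were not called, though the change in Lyz2Cre-BHLHE40-Fl was without LPS replicate 2 (-0.66, limma adjusted p = 0.0484) and under equal library totals (-1.03, limma adjusted p = 0.00206). F10, which encodes factor X, rose with LPS in both labels, with 48082 against 4971 in Lyz2Cre-BHLHE40-Fl and 32519 against 3805 in Lyz2Cre. Apoc1 (ENSMUSG00000040564, chromosome 7), an apolipoprotein of the Apoe cluster, was near the detection limit, with 0.7 to 6.5 in all 12 libraries and 4 to 13 reads a group. None of its 5 comparisons was called. Apoe itself averaged 108133 to 153518 in the 4 groups.

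Adhesion molecules differed between themselves. Icam2 (ENSMUSG00000001029, chromosome 11 from 106377656 to 106388075, minus strand) is an integrin ligand and a surface marker of large peritoneal macrophages. It stood at 64.0, 83.7 and 66.7 in Lyz2Cre-BHLHE40-Fl controls, against 147.0, 171.8 and 97.1 in Lyz2Cre controls. The LPS values were 114.7, 90.5 and 86.4 in Lyz2Cre-BHLHE40-Fl, against 143.1, 144.8 and 152.4 in Lyz2Cre. Groups did not overlap between labels, and Icam2 was 1.94-fold lower in controls (limma adjusted p = 0.00156). With LPS it was 1.51-fold lower (limma adjusted p = 0.0246), a call lost under equal library totals (limma adjusted p = 0.244). It was also lost without any 1 of 5 libraries, Lyz2Cre-BHLHE40-Fl LPS replicates 2 and 3 and Lyz2Cre LPS replicates 1, 2 and 3 (limma adjusted p = 0.0509 to limma adjusted p = 0.0919). LPS changes of Icam2 were 0.44 in Lyz2Cre-BHLHE40-Fl and 0.12 in Lyz2Cre, neither called, and both turned negative under equal library totals. The change in Lyz2Cre-BHLHE40-Fl was called without its control replicate 2 (limma adjusted p = 0.0472) or Lyz2Cre control replicate 3 (limma adjusted p = 0.0359), and under quantile normalization (0.67, limma adjusted p = 0.0107). Icam1, the inducible relative of Icam2, rose 120.3-fold in Lyz2Cre-BHLHE40-Fl and 12.1-fold in Lyz2Cre.

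Selp (ENSMUSG00000026580, chromosome 1 from 164115264 to 164150026, plus strand) encodes P-selectin, best known from platelets and endothelium. It stood at 29.3, 33.7 and 40.1 in Lyz2Cre-BHLHE40-Fl with LPS, against 12.4, 12.6 and 2.2 in its controls. In Lyz2Cre it stood at 15.3, 8.3 and 3.1 with LPS, against 14.6, 10.5 and 10.9 in controls. The 3 Lyz2Cre-BHLHE40-Fl LPS libraries lay above the other 9, which overlapped. These values rest on few reads, 79 over that group, 36 in its controls, 19 in Lyz2Cre with LPS and 45 in Lyz2Cre controls. Lyz2Cre-BHLHE40-Fl control replicate 3 had 3 reads and Lyz2Cre LPS replicate 3 had 2. Selp rose 3.79-fold with LPS under that label (log2 change 2.07 ± 0.56 SE, limma adjusted p = 0.00478), and with LPS it was 3.86-fold higher than in Lyz2Cre (limma adjusted p = 0.00766). It was the only member whose LPS change differed between labels (difference 2.66 ± 0.79 SE, limma adjusted p = 0.0247), beside 18.8% of all genes. That call was lost without replicate 3 of Lyz2Cre-BHLHE40-Fl LPS (limma adjusted p = 0.0581), of its controls (limma adjusted p = 0.0594) or of Lyz2Cre LPS (limma adjusted p = 0.0648), or without Lyz2Cre control replicate 1 (limma adjusted p = 0.06). Sele, which encodes E-selectin, averaged 83.3 ± 5.37 in Lyz2Cre-BHLHE40-Fl with LPS against 3.53 ± 1.74 in its controls, and 1.5 ± 1.55 in Lyz2Cre with LPS against 0 in all its controls.

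Platelet and endothelial markers were read beside Selp. Of 8 megakaryocyte and platelet genes 4 were at 0 in all 3 Lyz2Cre-BHLHE40-Fl LPS libraries. The count was also 4 in its controls and in Lyz2Cre with LPS, and 2 in Lyz2Cre controls. Their summed level in Lyz2Cre-BHLHE40-Fl with LPS was 5.1 to 10.7, the lowest of the 4 groups. The sum was 15.9 to 22.9 in its controls, 53.8 to 70.0 in Lyz2Cre with LPS and 25.9 to 30.1 in Lyz2Cre controls. The 10 endothelial genes summed to 3104 to 3145 in Lyz2Cre-BHLHE40-Fl with LPS and 3350 to 3672 in its controls. In Lyz2Cre they summed to 2027 to 2190 with LPS and 926.1 to 1043 in controls. Kdr and Vwf made up most of these sums and moved in opposite directions with LPS. Kdr averaged 1771 with LPS against 813.4 in controls of Lyz2Cre-BHLHE40-Fl (log2 change 1.12, limma adjusted p = 1.8e-06), and Vwf averaged 1222 against 2665 (log2 change -1.12, limma adjusted p = 4.66e-07). Cdh5, at lower values, averaged 77.1 with LPS against 11.8 in controls of Lyz2Cre-BHLHE40-Fl. In Lyz2Cre it averaged 150.6 against 14.9. Of the 10 endothelial genes 7 were tested, and LPS gave 3 higher, 1 lower and 3 not called under each label. All tested genes had 24.9% higher and 25.6% lower in Lyz2Cre-BHLHE40-Fl, and 25% and 23.9% in Lyz2Cre. Cldn5 and Emcn were at 0 in all 3 libraries of Lyz2Cre-BHLHE40-Fl with LPS. In both Lyz2Cre groups 3 of the 10 genes (Cldn5, Emcn and Erg) were at 0. The platelet and endothelial parts in the Selp change were not tested. Selp ends 1811 bases before F5 starts on the same strand, and the pair did not move together. Their promoter windows are shown for that reason, chr1:164115014-164115313 for Selp and chr1:164151585-164151884 for F5, both plus strand, and neither held a GATA match in these letters.
Selp: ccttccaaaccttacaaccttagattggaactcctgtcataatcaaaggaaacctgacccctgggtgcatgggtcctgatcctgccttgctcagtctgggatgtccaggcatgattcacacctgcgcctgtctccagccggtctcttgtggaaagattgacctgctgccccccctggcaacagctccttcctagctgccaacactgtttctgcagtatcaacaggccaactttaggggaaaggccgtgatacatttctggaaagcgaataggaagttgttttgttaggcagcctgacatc
F5: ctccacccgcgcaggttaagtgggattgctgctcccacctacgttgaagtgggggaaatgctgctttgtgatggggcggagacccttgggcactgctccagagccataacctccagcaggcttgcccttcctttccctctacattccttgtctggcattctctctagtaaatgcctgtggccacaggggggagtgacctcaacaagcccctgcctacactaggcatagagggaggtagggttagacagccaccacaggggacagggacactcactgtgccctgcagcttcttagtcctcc

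Garnl3 (ENSMUSG00000038860, chromosome 2 from 32986224 to 33131654, minus strand) is a large gene with a GTPase-activating domain. It stood at 20.4, 14.2 and 24.6 in Lyz2Cre-BHLHE40-Fl controls, against 7.7, 5.7 and 5.9 in Lyz2Cre controls. With LPS it stood at 15.2, 21.5 and 21.3 in Lyz2Cre-BHLHE40-Fl, against 8.3, 13.8 and 17.1 in Lyz2Cre. Controls did not overlap and LPS libraries did. Garnl3 was 3.07-fold higher in controls (limma adjusted p = 0.00653), and with LPS the log2 difference of 0.57 was not called (95% interval -0.24 to 1.38). LPS gave -0.01 in Lyz2Cre-BHLHE40-Fl and 0.88 in Lyz2Cre (limma adjusted p = 0.0685), which was called without Lyz2Cre LPS replicate 1 (1.15, limma adjusted p = 0.0266) and with the filter set at 5 (0.88, limma adjusted p = 0.0411). Under equal library totals that change was 0.22 (limma adjusted p = 0.655).

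**Figure D3:**
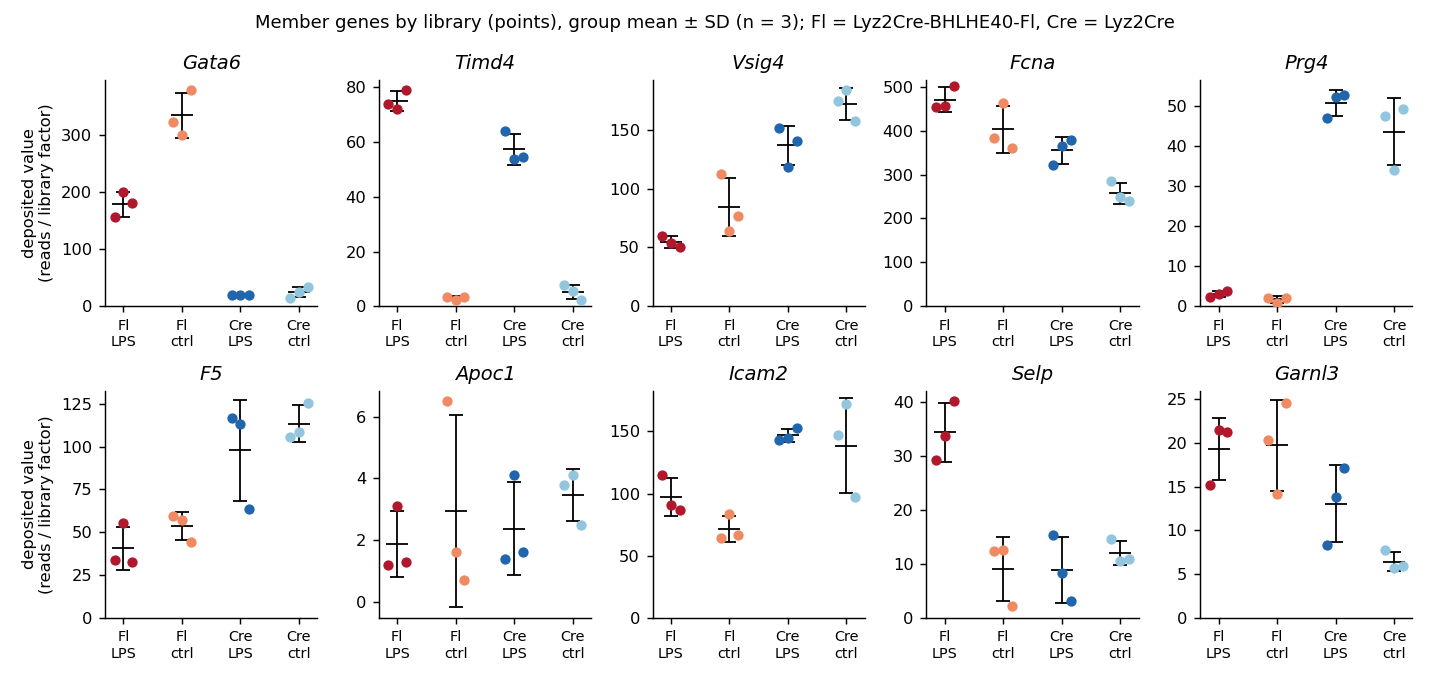
Deposited value of each member (y axis, linear, own scale per gene) in every library, with the group mean and SD of 3 libraries; Fl is Lyz2Cre-BHLHE40-Fl and Cre is Lyz2Cre. Gata6 is high in the 6 Fl libraries, Prg4 in the 6 Cre libraries, Timd4 in the 6 LPS libraries and Selp in the 3 Fl LPS libraries.

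Per kilobase of exon, the members kept a partly common order. Fcna had the highest mean level per kilobase in all 4 groups, 342.5 in Lyz2Cre-BHLHE40-Fl with LPS, 292.9 in its controls, 258.6 in Lyz2Cre with LPS and 187.4 in its controls. Gata6 was at rank 5 with LPS and 3 in controls of Lyz2Cre-BHLHE40-Fl, and at rank 8 with LPS and 7 in controls of Lyz2Cre. Vsig4, Gata6 and Icam2, neighbours in Lyz2Cre-BHLHE40-Fl controls, had 56.8, 51.2 and 37.5 per kilobase. Libraries of Vsig4 and Gata6 overlapped on that scale, and those of Gata6 and Icam2 did not.

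Beyond the members, 18 other genes of large peritoneal macrophages were followed. In controls 5 were called higher and 10 lower under the BHLHE40-Fl label, with a median log2 difference of -1.57, beside 31.6% of all genes called. With LPS 4 were higher and 9 lower, with a median of -0.88, beside 37.4% of all genes. Some other lists shifted in the same direction in controls. Small peritoneal macrophage and MHC class II genes had 4 higher and 8 lower of 14 tested (median -1.20), and genes of other resident macrophages 2 higher and 7 lower of 13 (median -1.21). All 3 T cell genes were lower (median -1.80), on low sums of 2.4 to 4.3 in Lyz2Cre-BHLHE40-Fl controls against 36.5 to 56.1 in Lyz2Cre controls. Other lists shifted up in controls, among them mesothelial (median 5.67), fibroblast (2.75) and retinoic acid pathway genes (0.72). Marco, a scavenger receptor, fell furthest in controls (log2 difference -7.44, limma adjusted p = 1.84e-09). Adgre1, which encodes F4/80, averaged 5635 ± 245 in Lyz2Cre-BHLHE40-Fl controls against 30456 ± 725 in Lyz2Cre controls. Itgam, which encodes CD11b, averaged 1179 ± 84.9 and 9695 ± 234 in the same groups. Both defining surface markers were thus present in all groups and lower under the BHLHE40-Fl label. The 5 higher genes in controls were Wnt2, Tgfb2, Car6, Cd93 and F10, named after their values were seen. With LPS 8 of the 18 rose and 4 fell in Lyz2Cre-BHLHE40-Fl, beside 50.5% of all genes called. In Lyz2Cre 7 rose and 3 fell, beside 48.9% of all genes, and there equal library totals gave 3 higher and 7 lower. Serpinb2, a serine protease inhibitor, rose 48.2-fold with LPS in Lyz2Cre-BHLHE40-Fl and 7.32-fold in Lyz2Cre, and the 2 changes differed (limma adjusted p = 2.19e-06).

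**Figure D4:**
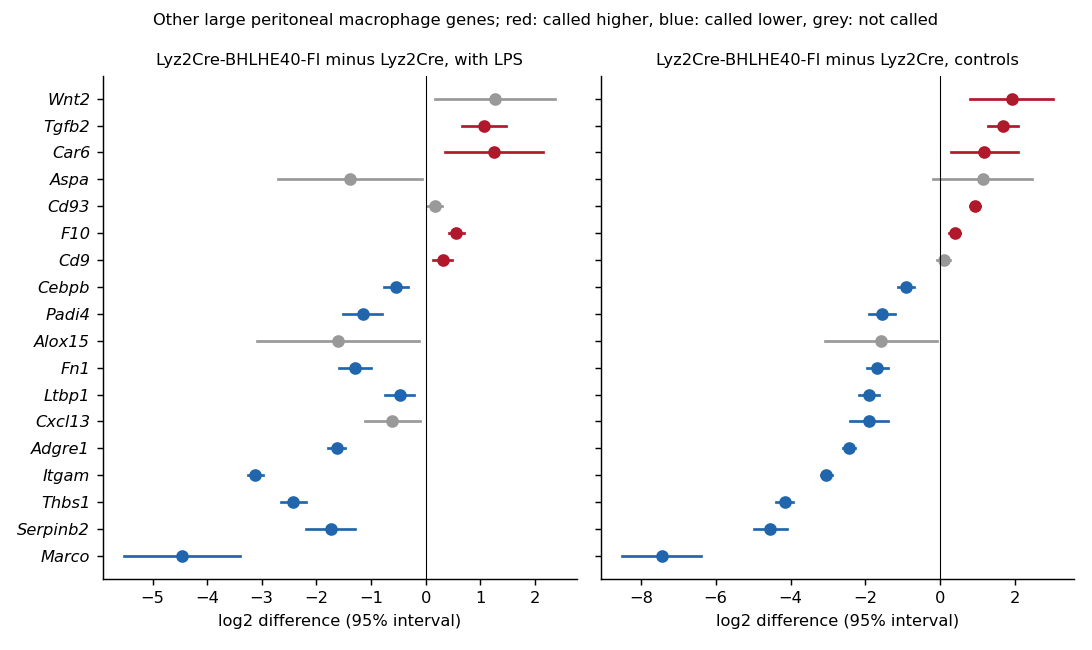
Log2 difference (x axis) between Lyz2Cre-BHLHE40-Fl and Lyz2Cre with 95% interval for 18 other large peritoneal macrophage genes, with LPS (left) and in controls (right); red was called higher, blue lower and grey not called. In controls 10 called genes, Marco furthest, lie to the left and 5 to the right.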

How the data were processed

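RNA of mouse peritoneal macrophages was isolated with a column kit and sequenced, per the labels' protocols. The submitters' processing notes name STAR, Cufflinks, Cuffdiff and the build mm10, with no role or version. The deposited table holds a signal. Its values look like whole reads scaled by a single factor for each library. With a tolerance of 0.06, 100% of values in each library were whole multiples of 1 step. The scaling itself is not given in the sources used here.

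Genes that reached 1 in 3 or more libraries entered a limma 3.58.1 trend model on log2(value + 1), with 1 mean per group over all 12 libraries and no rescaling. P-values are Benjamini-Hochberg adjusted over 20419 genes, and genes were called below 0.05. This scale understates changes of low genes. A fold is the ratio of 2 group means. Floors cover counting error only. On the recovered reads, edgeR 4.0.16 called 9507 genes and DESeq2 1.42.0 called 9268 for LPS in Lyz2Cre, against 9977 with limma. The scripts were tested on simulated data. Replicate libraries differed beyond sampling noise (chi-square per degree of freedom 7.35 to 72.2).

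Members and gene lists were chosen with earlier results of these data known. Named list genes are called genes with the largest changes, at most 4 per list and comparison, plus relatives of members, Bhlhe40 and the defining markers. 1 of the genes that this rule took is not reported here. The 5 higher genes among the 18 others in controls, and Spi1, Wt1, Cdh5, Cldn5, Emcn and Erg, were named after their values were seen. The entry with the highest mean was kept for a symbol with several. Adgre1, Itgam, Upk3b and Apoe are named as markers or relatives. Alternatives covered pseudocount, filter, scaling, spread, tool, a replicate block and each library left out.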

Additional observations from a re-analysis of the deposited data

Results flagged for a closer look

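The LPS change of Selp differed between the genotype labels by a test of the difference itself. Its log2 change with LPS in Lyz2Cre-BHLHE40-Fl minus that in Lyz2Cre was 2.66 (limma adjusted p = 0.0247), and it was higher with LPS in 3 of 3 libraries of Lyz2Cre-BHLHE40-Fl. No other member met this test in the fit of all 12 libraries, beside 18.8% of all genes. The Selp call was lost when certain single libraries were left out (limma adjusted p up to 0.0648), and it rests on 19 to 79 reads a group.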

How the results depend on the processing

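Of 1180 member values recomputed under the alternatives, 1133 kept their direction and side of the threshold, 14 lost a call, 12 gained one and 21 changed sign. Member counts stayed within 1.5 times except for LPS in Lyz2Cre under equal library totals, where 5 were called (1 higher, 4 lower), and for the interaction, where leaving out 1 library gave 0 to 2. Under equal totals the median log2 change over all genes was -0.58 (LPS in Lyz2Cre), -0.56 (LPS in Lyz2Cre-BHLHE40-Fl), 0.17 (genotype in controls) and 0.22 (genotype with LPS).

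Sign changes for LPS in Lyz2Cre were, under equal totals, Prg4 -0.48, Icam2 -0.60 and Fcna -0.26, and under quantile normalization F5 0.0074. Leaving out 1 library gave Gata6 -0.51 to 0.030, F5 -0.41 to 0.025 and Icam2 -0.11 to 0.29. For LPS in Lyz2Cre-BHLHE40-Fl they were, under equal totals, Icam2 -0.17 and Fcna -0.39, and under quantile normalization Apoc1 0.0017 and Garnl3 0.11. Leaving out 1 library gave Apoc1 -0.68 to 0.39 and Garnl3 -0.22 to 0.16. For genotype in controls it gave Apoc1 -1.07 to 0.0024 and Selp -0.98 to 0.068, and for genotype with LPS Apoc1 -0.49 to 0.14. The Apoc1 interaction was -0.18 with DESeq2 and -0.21 to 0.86 with 1 library left out. The cause was not tested. None of these values was called except Icam2 in Lyz2Cre and Fcna in Lyz2Cre-BHLHE40-Fl under equal totals (limma adjusted p = 0.0161 and 0.0073).

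Replicate numbers did not pair the libraries (correlations -0.0664 to 0.0277). With the replicate block 2 members were called for LPS in Lyz2Cre, 4 for LPS in Lyz2Cre-BHLHE40-Fl, 7 in each genotype comparison and 1 for the interaction. With edgeR 9 of the 10 members were tested. Low read numbers limit Apoc1, Prg4, Selp, Garnl3 and control Timd4. Garnl3 had 24 to 80 reads a group.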
